A study of Homo sapiens with 12 samples.

Results

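The genes described here are the enzymes that make, lengthen and desaturate fatty acids (ACLY, ACSS2, ACACA, FASN, ELOVL6, ELOVL5, SCD, FADS1 and FADS2), together with PNPLA3, a lipid droplet protein. They were measured in human kidney tubule cells given Nnm, a compound that the labels name only so, at low dose. The 10 genes were chosen by name, with earlier results of these data known. A probe set was taken as a gene's own where the platform annotation gives it that symbol alone. Of the 10 genes, 9 had such probe sets, 23 of the 54675 on the array. With a log2 value above 4 on at least 3 arrays as the limit of brightness, 16 of these probe sets and 8 of the genes were kept, among 10907 genes tested in all. The 2 probe sets of FADS2 lay between 2.56 and 3.67 on all 12 arrays and were too dim to test. The 3 probe sets of FADS1 carry the symbols of both MIR1908 and FADS1, so they are given apart and in no count.

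New fatty acids are built in the cytosol from acetyl-CoA, which ACLY makes from citrate and ACSS2 from acetate. ACACA turns acetyl-CoA into malonyl-CoA, the committed step, and FASN joins these units into palmitate, which elongases (ELOVL genes) lengthen and desaturases (SCD, FADS genes) make unsaturated. Most of these genes, and PNPLA3, are known targets of the transcription factor SREBP encoded by SREBF1, which insulin stimulates in liver. In the kidney, proximal tubule cells take up and burn fatty acids as their main fuel, and stored lipid is associated with tubule injury.

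HK-2 is a single immortalised line of human proximal tubule epithelium. Cells plated a day earlier and almost confluent received a low dose of Nnm, whose amount the labels do not give, or the vehicle. The groups were Nnm 24 h, control 24 h, Nnm 48 h and control 48 h, each with 3 arrays labelled as biological replicates. All groups shared a medium with glucose, insulin, hydrocortisone, epidermal growth factor, transferrin and selenite. The values are total RNA signals of whole cultures, so fewer expressing cells and less RNA per cell cannot be told apart.

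On each array 40.4% to 40.8% of the probe sets lay above 4, and 12 arrays limit the precision. All 7 epithelial markers were above 4 on all arrays. Of 12 proximal tubule markers measured, DPP4 and SLC3A1 were above 4 on all arrays, and the other 10 (LRP2, CUBN, SLC34A1, AQP1, ANPEP, GGT1, MME, SLC22A6, SLC22A8 and SLC5A2) were above it on none. The summed linear signal of the proximal tubule list was 4077 to 6055 on the Nnm arrays and 2453 to 3687 on the control arrays at 24 h. At 48 h it was 8118 to 9044 on the Nnm arrays and 3540 to 4760 on the control arrays, and its part in the results below was not tested. In each comparison 1 of its genes rose. All 7 adipocyte markers and all 4 leukocyte markers measured stayed under 4 on all arrays, as did 6 of 7 hepatocyte markers, 4 of 7 fibroblast markers and 4 of 5 endothelial markers. The hepatocyte list, with 1 gene above 4, summed to 7553 to 9483 on the Nnm arrays and 5274 to 5542 on the control arrays at 48 h, and the fibroblast list to 5319 to 6003 on the Nnm arrays and 4675 to 5063 on the control arrays. Of these lists 1 hepatocyte gene rose and 1 fibroblast gene fell at 48 h. Their part in the results was not tested. Replicate 2 stood apart: the median absolute log2 difference between the Nnm and control arrays of the same number was 0.193 at 24 h and 0.184 at 48 h for replicate 2, and 0.307 to 0.374 for replicates 1 and 3. The 5′ probe set of ACTB minus its 3′ one, which reflects intact RNA, gave log2 values of -1.17 to -1.09 for the 4 arrays of replicate 2, while the remaining arrays gave -0.863 to -0.736. The same measure for GAPDH did not set replicate 2 apart, at 0.0624 to 0.158 beside 0.0293 to 0.162. These measures were not tested for their part in the results. Calls at 24 h or 48 h that changed without the Nnm replicate 2 arrays are given below.

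Promoters of the members are shown because several members fell together. The RefSeq table of build GRCh38.p14 matched 8 of the 10 genes, with 13 windows. It has no entry for FASN and PNPLA3, and the 8 include FADS1 and FADS2, which were not tested. The windows printed are the 250 bases before a transcript start, read 5′ to 3′ on the gene's strand. Those of ACLY (chr17:41918952-41919201, minus strand), ACACA (chr17:37359097-37359346, minus strand) and ACSS2 (chr20:34876362-34876611, plus strand) belong to genes that fell for the mean of both times. At a single time, ACLY and ACSS2 passed the test at 48 h only, and ACACA at neither. Those of SCD (chr10:100346983-100347232, plus strand) and ELOVL5 (chr6:53348951-53349200, minus strand) belong to genes that passed neither at a single time nor for the mean of both times. Where a gene has several windows, the one with the most motif matches is printed. This choice concerns ACLY, ACACA and ACSS2 but not SCD and ELOVL5, so motif counts of the printed windows cannot be compared between these genes. Capitals mark the CCAAT box (CCAAT), the GC box (GGGCGG) and the E-box (CACGTG), searched on both strands, so ATTGG and CCGCCC are matches too, and neighbouring matches can share bases.
ACLY: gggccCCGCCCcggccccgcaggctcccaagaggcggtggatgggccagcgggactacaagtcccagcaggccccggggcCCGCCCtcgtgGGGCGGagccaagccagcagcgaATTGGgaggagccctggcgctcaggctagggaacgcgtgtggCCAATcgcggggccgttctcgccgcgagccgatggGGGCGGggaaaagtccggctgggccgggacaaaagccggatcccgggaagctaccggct
ACACA: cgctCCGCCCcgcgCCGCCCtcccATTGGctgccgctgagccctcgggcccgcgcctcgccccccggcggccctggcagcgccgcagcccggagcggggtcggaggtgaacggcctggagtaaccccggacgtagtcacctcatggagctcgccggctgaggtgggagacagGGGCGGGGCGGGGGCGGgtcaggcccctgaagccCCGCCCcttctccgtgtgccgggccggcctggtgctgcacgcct
ACSS2: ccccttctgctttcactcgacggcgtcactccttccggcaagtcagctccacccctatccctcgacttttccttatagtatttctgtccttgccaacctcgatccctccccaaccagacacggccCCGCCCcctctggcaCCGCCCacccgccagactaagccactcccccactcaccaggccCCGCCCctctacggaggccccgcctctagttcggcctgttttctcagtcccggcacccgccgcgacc
SCD: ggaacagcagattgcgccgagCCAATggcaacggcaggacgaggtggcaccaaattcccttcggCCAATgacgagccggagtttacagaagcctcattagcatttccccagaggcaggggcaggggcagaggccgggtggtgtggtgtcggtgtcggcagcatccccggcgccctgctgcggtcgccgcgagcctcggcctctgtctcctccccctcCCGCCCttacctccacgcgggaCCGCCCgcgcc
ELOVL5: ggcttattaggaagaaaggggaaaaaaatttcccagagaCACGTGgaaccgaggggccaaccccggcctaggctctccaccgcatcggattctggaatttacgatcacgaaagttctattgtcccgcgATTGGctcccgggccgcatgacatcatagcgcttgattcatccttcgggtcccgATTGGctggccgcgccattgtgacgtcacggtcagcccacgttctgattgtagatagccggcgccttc
A CCAAT box stood in 7 of the 13 windows and 5 of the 8 genes, and in 32.0% of all 35116 windows of this length in the table. A GC box stood in 10 of the 13 windows and 7 of the 8 genes, against 42.6% of all windows. The E-box was in 1 of the 13 windows, that of ELOVL5, against 6.34% of all windows. The sterol element, searched only as TCACNCCAC (N is any base), was in 0 of the 13, against 0.883%. Sites with other letters were not counted, so its absence here does not show that a gene lacks such an element. Of the printed windows, that of ACACA held 6 GC boxes and 1 CCAAT box, and that of ACLY 4 GC boxes and 2 CCAAT boxes. The ACSS2 window held 3 GC boxes, the SCD window 2 of each, and the ELOVL5 window 2 CCAAT boxes and no GC box. The windows not printed held 0 and 5 GC boxes for ACACA, 3 for ACLY and 1 for ACSS2. Their CCAAT boxes were 2 and 0 for ACACA, 2 for ACLY and 1 for ACSS2. The shares are per window and are no background for the counts of genes, which can have several windows. The ACLY windows overlap and share matches. All these matches describe the letters only, and whether any is a bound site was not tested.

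Averaged over both times, 5 of the 8 genes fell with Nnm and none rose. On the linear scale FASN was at 45.6% of the control level, PNPLA3 at 48.6%, ACSS2 at 58.6%, ACLY at 81.0% and ACACA at 84.5%. ELOVL6, SCD and ELOVL5 did not pass the test. Genes were tested with limma across all 10907 genes, every p is adjusted over all of them by the method of Benjamini and Hochberg, and the threshold is 0.05. For this mean 37.3% of all genes were called, 16.9% as lower and 20.4% as higher. The median log2 change was -0.27 over the 8 genes and 0.02 over all genes. At 24 h 1 of the 8 was called, a fall, where 19.4% of all genes were called, 8.85% as lower and 10.6% as higher. At 48 h 4 of the 8 were called, all falls, where 13.8% of all genes were called, 5.34% as lower and 8.45% as higher. The 8 genes were chosen with earlier results of these data known, so the shares are a background and no independent test. The median log2 change was -0.26 for the 8 genes and 0.01 for all genes at 24 h, and -0.44 and 0.02 at 48 h. The plot of values by array shows the 8 genes on all 12 arrays.

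**Figure D1:**
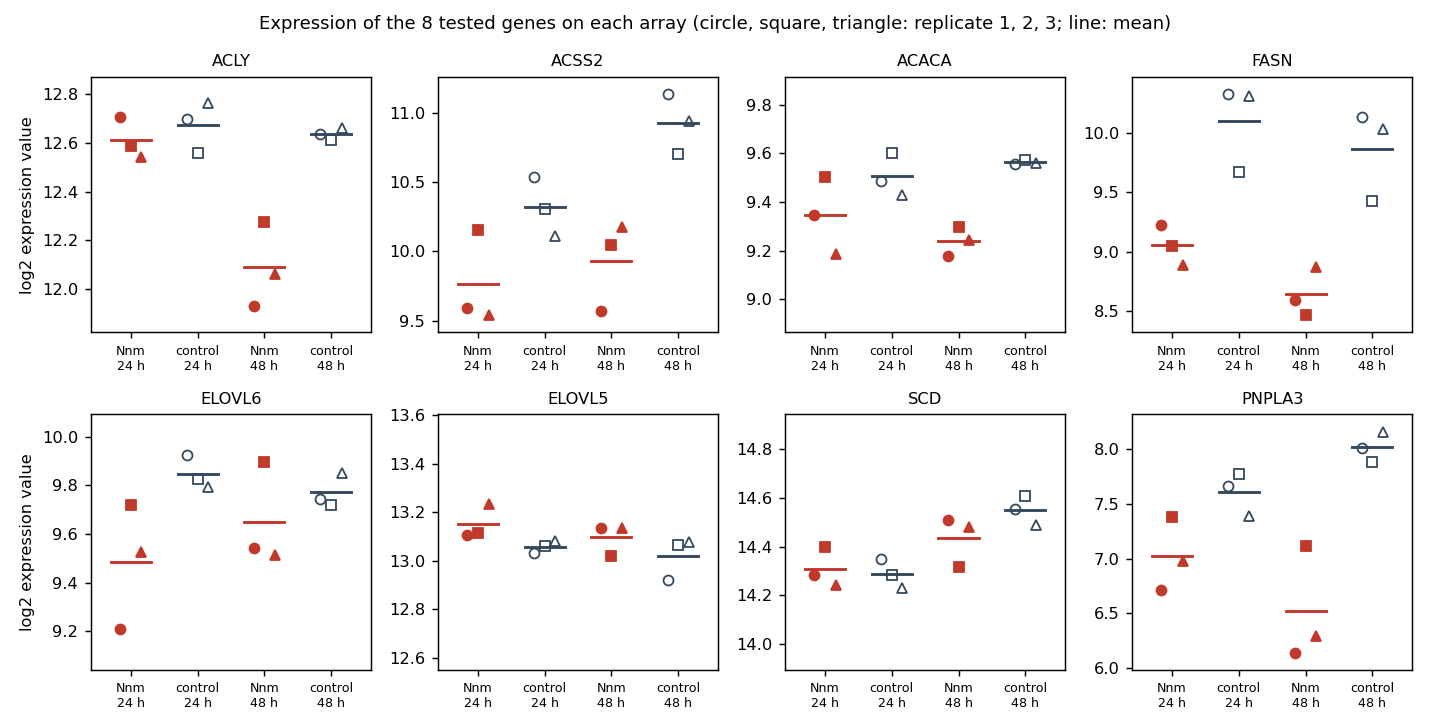
Log2 expression value (vertical axis, with its own range for each gene) of the 8 tested genes on each of the 12 arrays. Filled red marks are Nnm arrays and open dark marks control arrays at 24 h and 48 h, circles, squares and triangles are replicates 1, 2 and 3, and lines are means of 3 arrays. The FASN marks of Nnm lie below all control marks at both times, and SCD and ELOVL5 marks lie within 0.5 of each other at each time.

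Of the enzymes that supply acetyl-CoA, ACLY, which cleaves citrate, fell at 48 h and was close to control at 24 h. At 24 h it was at 12.71, 12.59 and 12.54 on the Nnm arrays (replicates 1, 2 and 3, log2 values here and below), and at 12.70, 12.56 and 12.76 on the control arrays. The 48 h values were 11.93, 12.28 and 12.06 on the Nnm arrays and 12.64, 12.61 and 12.66 on the control arrays. The groups overlapped at 24 h, and at 48 h all Nnm arrays were below all control arrays. The log2 change was -0.55 at 48 h (SE 0.11, adjusted p = 0.0139), or 68.4% of control, and -0.06 at 24 h (95% interval -0.30 to 0.18, adjusted p = 0.726). The 48 h call was lost without Nnm replicate 1 or 3 or control replicate 1 or 3 of 48 h, at adjusted p of 0.0504 to 0.0580, while the call for the mean of both times (-0.30, SE 0.08, adjusted p = 0.0123) was kept without any 1 array.

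ACSS2, which makes acetyl-CoA from acetate, was at 9.60, 10.16 and 9.54 on the Nnm arrays of 24 h and at 10.53, 10.31 and 10.11 on the control arrays. Its 48 h values were 9.57, 10.05 and 10.18 on the Nnm arrays and 11.13, 10.70 and 10.94 on the control arrays. Nnm replicate 2 lay above the lowest control array at 24 h, and the groups did not overlap at 48 h. The fall at 48 h was -0.99 on the log2 scale (SE 0.21, adjusted p = 0.0159), or 50.4% of control. It was not called without Nnm replicate 1, control replicate 1 or control replicate 3 of 48 h (adjusted p = 0.0550 to 0.0685). At 24 h the change of -0.55 (SE 0.21) did not pass (adjusted p = 0.0848), and it passed without Nnm 24 h replicate 2, at -0.75 (adjusted p = 0.0202). For the mean of both times ACSS2 fell by 0.77 (SE 0.15, adjusted p = 0.0035), a call kept without any 1 array.

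ACACA, the carboxylase of the committed step, had the smallest change over both times among the 5 genes that fell. At 24 h it was at 9.35, 9.50 and 9.19 on the Nnm arrays and at 9.49, 9.60 and 9.43 on the control arrays, which overlapped. After 48 h the values were 9.18, 9.30 and 9.24 on the Nnm arrays and 9.55, 9.57 and 9.56 on the control arrays, with no overlap. The log2 change at 48 h was -0.33 (SE 0.10, 79.8% of control), at an adjusted p of 0.0590, and the adjusted p was 0.0196 with the replicate block, which compares arrays of the same number. It also passed without Nnm 24 h replicate 2 (adjusted p = 0.0377). At 24 h it was -0.16 (SE 0.10, adjusted p = 0.282). The mean of both times passed, at -0.24 (SE 0.07, adjusted p = 0.0237), but not without Nnm 24 h replicate 3, Nnm 48 h replicate 1 or control 24 h replicate 2 (adjusted p = 0.0535 to 0.0562).

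FASN, the multienzyme that assembles palmitate, fell at both times. At 24 h it was at 9.23, 9.05 and 8.89 on the Nnm arrays and at 10.32, 9.67 and 10.31 on the control arrays. FASN after 48 h was at 8.60, 8.47 and 8.87 on the Nnm arrays and at 10.13, 9.42 and 10.03 on the control arrays. All Nnm values lay below all control values at each time, and control replicate 2 was the lowest control at both. The log2 change was -1.05 at 24 h (SE 0.22, adjusted p = 0.0141), or 48.4% of control, and -1.22 at 48 h (SE 0.22, adjusted p = 0.0114), or 43.0% of control. The 24 h call was lost without Nnm replicate 3 (adjusted p = 0.0590) or control replicate 3 of 24 h (adjusted p = 0.0653). The calls at 48 h and for the mean of both times (-1.13, SE 0.16, adjusted p = 0.0009) were kept without any 1 array.

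ELOVL6, which lengthens palmitate, was at 9.21, 9.72 and 9.53 on the Nnm arrays of 24 h and at 9.92, 9.83 and 9.79 on the control arrays. The values at 48 h were 9.54, 9.90 and 9.51 on the Nnm arrays and 9.74, 9.72 and 9.85 on the control arrays. The groups did not overlap at 24 h, and at 48 h Nnm replicate 2 was the highest of the 6 arrays. The log2 change was -0.36 at 24 h (SE 0.15, adjusted p = 0.0985; without Nnm 24 h replicate 2, -0.48 at 0.0332) and -0.12 at 48 h (95% interval -0.44 to 0.20, adjusted p = 0.612). The mean of both times was -0.24 (SE 0.10, adjusted p = 0.0879) and passed without Nnm 24 h replicate 2 (-0.30, adjusted p = 0.0324), Nnm 48 h replicate 2 (-0.30, adjusted p = 0.0306) or both (-0.36, adjusted p = 0.0065).

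ELOVL5, which lengthens polyunsaturated fatty acids, was among the brightest members. It lay between 13.11 and 13.23 on the Nnm arrays and between 13.03 and 13.08 on the control arrays at 24 h. At 48 h it lay between 13.02 and 13.14 on the Nnm arrays and between 12.92 and 13.08 on the control arrays. The Nnm arrays were all above the control arrays at 24 h by a small margin, and the groups overlapped at 48 h. The log2 change was 0.09 at 24 h (95% interval -0.11 to 0.29) and 0.08 at 48 h (95% interval -0.12 to 0.28), with adjusted p of 0.489 and 0.606.

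SCD, which places the first double bond in saturated fatty acids, was the brightest member. It lay between 14.24 and 14.40 on the Nnm arrays and between 14.23 and 14.35 on the control arrays at 24 h. At 48 h it lay between 14.32 and 14.51 on the Nnm arrays and between 14.49 and 14.61 on the control arrays. The groups overlapped at both times. The log2 change was 0.02 at 24 h (95% interval -0.19 to 0.23, adjusted p = 0.904) and -0.12 at 48 h (95% interval -0.33 to 0.09, adjusted p = 0.439). Its sign at 24 h changed under several settings and has no direction. Both intervals lie above those of FASN, -1.54 to -0.55 at 24 h and -1.71 to -0.72 at 48 h. A probe set's brightness also depends on its sequence and may saturate at high levels, so levels of different genes are not ranked.

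PNPLA3, a lipid droplet protein with lipase and acyltransferase activity, had the largest 48 h change of the 8 genes. At 24 h it was at 6.71, 7.38 and 6.98 on the Nnm arrays and at 7.66, 7.77 and 7.39 on the control arrays. At 48 h it was at 6.14, 7.12 and 6.29 on the Nnm arrays and at 8.01, 7.88 and 8.16 on the control arrays. The groups did not overlap at either time, narrowly at 24 h, and Nnm replicate 2 was the highest Nnm array at both. The log2 change at 48 h was -1.50 (SE 0.25, adjusted p = 0.0075), or 35.3% of control, a call kept without any 1 array. At 24 h it was -0.58 (SE 0.25, adjusted p = 0.116), and it passed without Nnm 24 h replicate 2 (-0.76, adjusted p = 0.0496) or Nnm 48 h replicate 2 (-0.58, adjusted p = 0.0401). The mean of both times was -1.04 (SE 0.18, adjusted p = 0.0020), also kept without any 1 array.

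**Figure D2:**
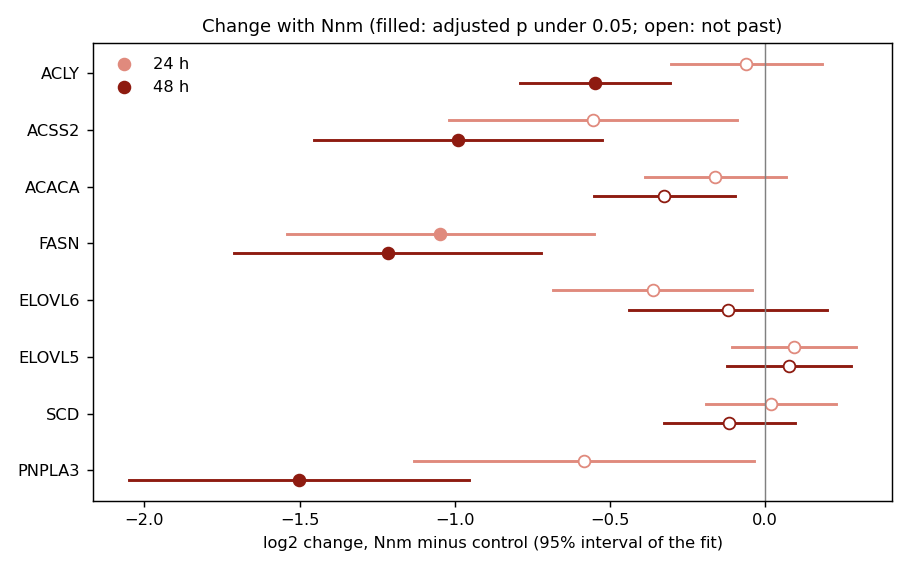
Log2 change, Nnm minus control, of the 8 tested genes (horizontal axis) at 24 h (light) and 48 h (dark), with the 95% interval of the limma fit. Filled points passed an adjusted p of 0.05: FASN at 24 h, and ACLY, ACSS2, FASN and PNPLA3 at 48 h.

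Non-overlap of the 3 Nnm and 3 control values has a higher background. At 24 h 4 of the 8 genes did not overlap, where 39.8% of all genes did not: FASN, ELOVL6 and PNPLA3 lay lower (18.7% of all genes) and ELOVL5 higher (21.1%). At 48 h 5 of the 8 did not overlap, where 36.1% of all genes did not: ACLY, ACSS2, ACACA, FASN and PNPLA3 lay lower (15.8% of all genes) and none higher (20.3%). Within replicate numbers, the plot of differences by replicate shows FASN, PNPLA3, ACSS2 and ACACA lower with Nnm in all 3 replicates at both times. The FASN differences were -1.10, -0.62 and -1.42 at 24 h and -1.53, -0.96 and -1.16 at 48 h for replicates 1, 2 and 3. Those of PNPLA3 were -0.95, -0.39 and -0.41 at 24 h and -1.87, -0.77 and -1.87 at 48 h. In the 5 genes that fell, replicate 2 had the smallest difference at 48 h. With both Nnm replicate 2 arrays left out, 4 genes were called at 24 h (ACSS2, ELOVL6, FASN and PNPLA3) and 5 at 48 h (with ACACA). In that fit 34.0% of all genes were called at 24 h, 15.9% as lower, and 28.9% at 48 h, 12.5% as lower. These arrays differed least from their controls, so the higher counts are no separate support.

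**Figure D3:**
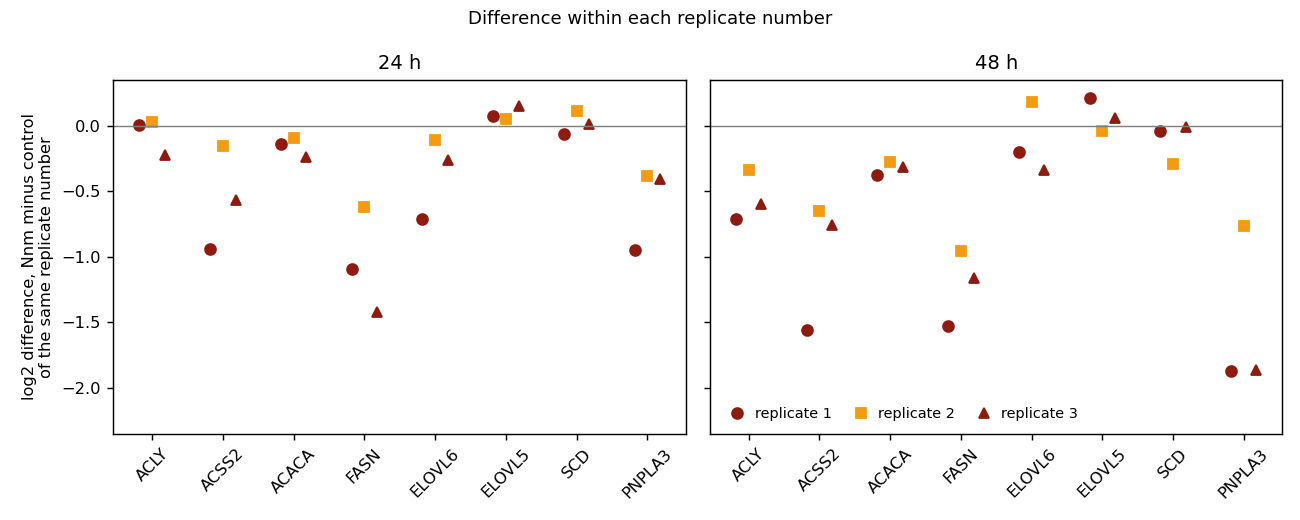
Log2 difference between the Nnm and control arrays of the same replicate number (vertical axis) for the 8 tested genes at 24 h (left) and 48 h (right). At 48 h the orange squares of replicate 2 lie nearest to 0 for ACLY, ACSS2, ACACA, FASN and PNPLA3.

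The change at 48 h was set against the change at 24 h to ask whether the response of these genes differed with time. In limma 0 of the 8 and 0 of all genes (0% of 10907) passed for this difference, while 698 genes and 2 members had an unadjusted p under 0.05, and with the replicate block 2 genes in all passed, none of them a member. These members were ACLY, with a difference of -0.49 (SE 0.16, adjusted p = 0.716), and PNPLA3, at -0.92 (SE 0.35, adjusted p = 0.754). The 48 h fall of ACLY is thus not shown to differ from its 24 h change. In the control cells, 48 h against 24 h, 0 of the 8 passed (0.128% of all genes were called). ACSS2 was 0.60 higher at 48 h (SE 0.21, adjusted p = 0.224) and SCD 0.26 higher (SE 0.10, adjusted p = 0.235), and for both, and for PNPLA3 (0.41, adjusted p = 0.454), the 48 h control arrays were all above the 24 h ones; 12.1% of all genes lay higher in this way and 26.3% did not overlap. In Nnm cells, 48 h against 24 h, 0 of the 8 passed (0.119% of all genes were called). ACLY was 0.52 lower at 48 h in Nnm cells (log2 change -0.52, SE 0.11, adjusted p = 0.153), and passed with the replicate block (adjusted p = 0.0471). FASN (-0.41) and ACLY were lower on all 48 h Nnm arrays than on all 24 h ones, as were 7.07% of all genes (12.7% did not overlap). These comparisons share groups with the Nnm comparisons and are not independent of them.

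Several members had more than 1 kept probe set, and the values above are from the one with the highest mean. In a fit over all 19832 kept probe sets with 1 gene, 14.8% were called at 24 h and 10.2% at 48 h. The 3 ACLY probe sets moved alike at 48 h, at -0.55, -0.57 and -0.60, and all passed (adjusted p = 0.0140 to 0.0349). The other PNPLA3 probe set also fell at 48 h, with a log2 change of -1.63 (SE 0.25, adjusted p = 0.0079), and had a change of -0.78 at 24 h (adjusted p = 0.0560, or 0.0384 with the replicate block). The 4 SCD probe sets had changes between -0.10 and 0.02 at 24 h and between -0.20 and -0.09 at 48 h, and none passed. ELOVL6 differed between its probe sets. The dimmest, with a mean of 5.61, fell by 1.19 at 48 h (SE 0.32, adjusted p = 0.0420), and its change at 24 h was -0.99 (adjusted p = 0.0623, or 0.0218 with the replicate block). It was at 4.68, 5.72 and 4.97 on the Nnm arrays of 48 h and at 6.69, 6.14 and 6.11 on the control arrays. The other ELOVL6 probe sets had changes of -0.12 and -0.22 at 48 h and did not pass, so the size of the ELOVL6 change depends on the probe set; the mean of its probe sets gave -0.51 over both times (adjusted p = 0.0118). A further probe set each of FASN and ACACA and 3 of ELOVL5 were under 4 on all arrays and add no information.

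**Figure D4:**
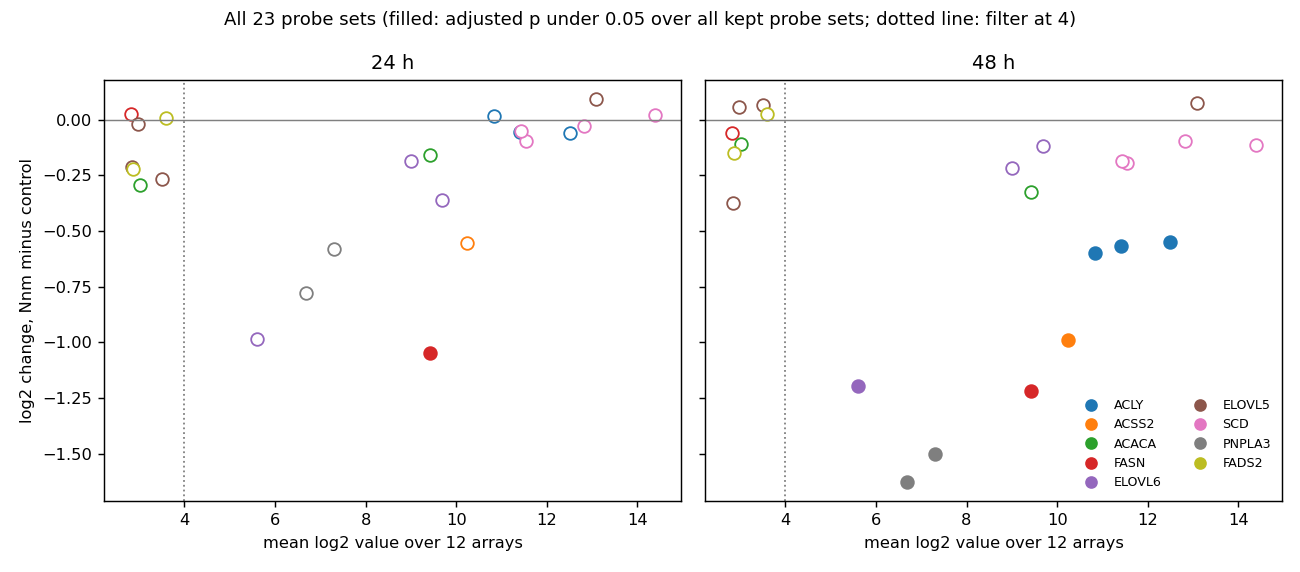
Log2 change, Nnm minus control (vertical axis), against the mean log2 value over 12 arrays (horizontal axis) for the 23 probe sets of 9 genes at 24 h (left) and 48 h (right). Filled points passed an adjusted p of 0.05 over all kept probe sets, and the dotted line is the limit of brightness at 4. At 48 h the points of ACLY lie together near -0.55 to -0.60, while those of ELOVL6 spread between -0.12 and -1.19.

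The 3 probe sets annotated to both MIR1908 and FADS1, the desaturase of polyunsaturated fatty acids, were bright, with group means between 10.31 and 11.99. Their log2 changes were 0.37, 0.29 and 0.26 at 24 h and 0.19, 0.14 and 0.12 at 48 h, and none passed in a fit over all 22678 kept probe sets (adjusted p = 0.163 to 0.287 at 24 h). The brightest was at 12.22, 11.84 and 11.69 on the Nnm arrays of 24 h and at 11.81, 11.44 and 11.41 on the control arrays, and with the replicate block it passed at 24 h (adjusted p = 0.0291). Over 24 h and 48 h together the 3 changes averaged 0.28, 0.22 and 0.19. None of these averages passed without the block (adjusted p = 0.106 to 0.226). With the replicate block they had adjusted p of 0.0141, 0.0338 and 0.107. The annotation alone does not assign these signals to one of the transcripts, and their source was not tested.

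Among 18 tested regulators of lipid synthesis, SREBF1, the gene of the SREBP that drives these enzymes, fell at both times. It was at 7.82, 7.60 and 7.36 on the Nnm arrays of 24 h and at 8.62, 8.12 and 8.44 on the control arrays. At 48 h it averaged 7.48 ± 0.20 on the Nnm arrays and 8.27 ± 0.25 on the control arrays (SD, n = 3 each), and the groups overlapped at neither time. The log2 change was -0.80 at 24 h (SE 0.18, adjusted p = 0.0171) and -0.79 at 48 h (SE 0.18, adjusted p = 0.0211). A dim SREBF1 probe set (mean 4.93) had changes of 0.09 and -0.07 and did not pass. The 24 h call was lost without Nnm replicate 3, control replicate 1 or control replicate 3 of 24 h (adjusted p up to 0.0717), and the 48 h call without Nnm or control replicate 1 or 3 of 48 h (up to 0.0884). The mean of both times (-0.79, adjusted p = 0.0017) was kept without any 1 array.

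SREBF2, the gene of the SREBP of cholesterol synthesis, had changes of -0.28 and -0.32 at 24 h and 48 h and did not pass (adjusted p = 0.444 and 0.403). Its mean of both times, -0.30, did not pass either, and passed with the replicate block (adjusted p = 0.0124). INSIG1, a SREBP target whose product holds SREBP in the endoplasmic reticulum, fell at 48 h by 0.65 (SE 0.16, adjusted p = 0.0254), a call lost without Nnm replicate 1 or 3 or any control array of 48 h (adjusted p up to 0.100), and had a change of -0.10 at 24 h. Its relative INSIG2 rose at 24 h by 0.64 (SE 0.12, adjusted p = 0.0086). PRKAA2, a catalytic subunit of the AMP-activated kinase that phosphorylates and inhibits ACACA, rose by 0.60 at 24 h (adjusted p = 0.0143) and by 0.68 at 48 h (adjusted p = 0.0117). Its 3 dimmer probe sets did not pass at either time, with changes of 0.42, 0.08 and 0.12 at 24 h and 0.41, 0.04 and -0.0012 at 48 h. For the mean of both times the first of these passed (0.42, adjusted p = 0.0199 in the fit over all kept probe sets). The others did not (0.06 and 0.06, adjusted p = 0.534 and 0.642), so the PRKAA2 rise depends on the probe set. CREBRF, a regulator of the stress factor CREB3, rose by 1.55 at 24 h (SE 0.26, adjusted p = 0.0072), and its 48 h change of 0.75 passed with the replicate block (adjusted p = 0.0757, or 0.0456 with the block). The dimmer CREBRF probe sets also passed at 24 h, except the dimmest (0.71, adjusted p = 0.345). NR1H3, the gene of the sterol receptor LXR alpha, passed for the mean of both times (0.52, adjusted p = 0.0276) and at neither time (adjusted p = 0.0847 and 0.212), and with the replicate block at both (0.0118 and 0.0425). Over the list 3 genes rose and 1 fell at 24 h, and 2 rose and 2 fell at 48 h. Over all genes 10.6% rose and 8.85% fell at 24 h, and 8.45% rose and 5.34% fell at 48 h. With the replicate block the counts of the list were 8 and 1 at 24 h and 6 and 3 at 48 h, where 20.0% of all genes rose and 18.8% fell at 24 h and 18.5% rose and 13.7% fell at 48 h. These shares are the background of the counts of each list below. The median change was 0.20 at 24 h and 0.16 at 48 h.

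Of 23 other genes of fatty acid synthesis, elongation and desaturation, 5 rose and 2 fell at 24 h, and 1 rose and 4 fell at 48 h (7 and 7, and 2 and 9, with the replicate block). IDH1, a cytosolic source of NADPH, rose by 0.55 at 24 h (SE 0.12, adjusted p = 0.0160). MECR, the last reductase of mitochondrial fatty acid synthesis, fell by 0.80 at 24 h and 0.89 at 48 h (adjusted p = 0.0305 and 0.0257). SCD5, a relative of SCD, rose by 0.75 at 48 h (SE 0.21, adjusted p = 0.0413), and at 24 h its change of 0.65 passed with the replicate block (adjusted p = 0.0519, or 0.0054 with the block). Its 2 dimmer probe sets, with changes of 0.83 and -0.12 at 48 h, did not pass at either time. For the mean of both times the first passed (0.68, adjusted p = 0.0331 in the fit over all kept probe sets) and the other did not (-0.03). CYB5R3, the reductase that feeds electrons to the desaturases, fell by 0.49 at 48 h (SE 0.10, adjusted p = 0.0162), and at 24 h it passed with the replicate block (adjusted p = 0.0690, or 0.0366 with the block). The median change of this list was 0.04 at 24 h and -0.17 at 48 h.

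Of 10 genes of fatty acid activation, transport and binding, 2 rose and 2 fell at 24 h, and 1 rose and 0 fell at 48 h (2 and 3, and 2 and 1, with the replicate block). SLC27A3, an acyl-CoA synthetase of the fatty acid transport family, was at 6.82, 5.99 and 6.71 on the Nnm arrays of 24 h and at 4.71, 5.12 and 5.06 on the control arrays. It rose by 1.54 at 24 h (SE 0.29, adjusted p = 0.0092) and by 1.43 at 48 h (SE 0.29, adjusted p = 0.0141). Its relatives SLC27A2 and SLC27A5 moved apart at 24 h, SLC27A2 rising by 0.78 (adjusted p = 0.0453; at 48 h 0.0868, or 0.0386 with the replicate block) and SLC27A5 falling by 0.93 (adjusted p = 0.0288). ACSL1, a long-chain acyl-CoA synthetase, passed for the mean of both times (-0.74, adjusted p = 0.0099). At 24 h and 48 h it did not pass (adjusted p = 0.0822 and 0.0605), and with the replicate block it did (0.0069 and 0.0051). The median change of this list was -0.21 at 24 h and -0.17 at 48 h.

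Of 19 genes of triglyceride and phospholipid synthesis, 3 rose and 2 fell at 24 h, and 2 rose and 1 fell at 48 h (5 and 5, and 3 and 2, with the replicate block). GPAT3, an acyltransferase that starts glycerolipid synthesis, rose by 1.99 at 24 h (SE 0.42, adjusted p = 0.0136) and by 1.66 at 48 h (SE 0.42, adjusted p = 0.0295). It was at 8.99, 7.76 and 9.35 on the Nnm arrays of 24 h and at 6.75, 6.52 and 6.85 on the control arrays, with replicate 2 the lowest in each group. LPIN1, a phosphatidate phosphatase, rose by 1.02 at 24 h (SE 0.15, adjusted p = 0.0056), and its 48 h change of 0.27 did not pass. The dimmer LPIN1 probe sets had changes of 0.88 and 0.83 at 24 h, and that of 0.83 did not pass (adjusted p = 0.0555). MBOAT1, a lysophospholipid acyltransferase, rose by 1.17 at 24 h and 1.54 at 48 h (adjusted p = 0.0367 and 0.0181). LPCAT1, which remakes phosphatidylcholine, fell, with a log2 change of -1.91 at 24 h (SE 0.26, adjusted p = 0.0050) and -1.59 at 48 h (SE 0.26, adjusted p = 0.0068), and both calls were kept without any 1 array. The median change of this list was -0.16 at 24 h and -0.09 at 48 h.

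Among 14 tested relatives of PNPLA3, lipases and lipid droplet proteins, 1 rose and 1 fell at 24 h, and 1 rose and 0 fell at 48 h (2 and 2, and 2 and 1, with the replicate block). G0S2, an inhibitor of the triglyceride lipase encoded by PNPLA2, rose by 2.55 at 24 h (SE 0.77, adjusted p = 0.0418) and by 2.71 at 48 h (SE 0.77, adjusted p = 0.0413). It was at 11.60, 8.72 and 11.73 on the Nnm arrays of 48 h and at 8.03, 7.33 and 8.54 on the control arrays. HILPDA, a lipid droplet protein that also inhibits lipolysis, fell by 1.17 at 24 h (SE 0.31, adjusted p = 0.0285), and its 48 h change was -0.51 (adjusted p = 0.293). PNPLA8, a mitochondrial phospholipase, and FITM2, which helps droplets form, passed for the mean of both times, at 0.40 (adjusted p = 0.0120) and -0.55 (adjusted p = 0.0361), and at neither time. With the replicate block FITM2 passed at 48 h (adjusted p = 0.0662, or 0.0149 with the block), and its 2 dimmer probe sets, with mean changes of -0.11 and -0.03, did not pass. The median change of the list was 0.01 at 24 h and -0.01 at 48 h.

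Of 17 tested genes of cholesterol synthesis and uptake, which SREBP factors also control, 4 fell at 24 h and 5 at 48 h, and 0 rose (12 fell at each time with the replicate block, and 1 rose at 24 h). Their median change was -0.45 at 24 h and -0.56 at 48 h. The genes with the smallest p were ACAT2, LSS, NSDHL and STARD4, with mean changes of -1.40, -0.62, -0.97 and -0.58 over both times. STARD4 passed at 24 h with the replicate block (adjusted p = 0.0962, or 0.0335 with the block). The dimmer LSS probe sets, with changes of -0.86 and -0.36 at 48 h, did not pass in the fit over all kept probe sets (adjusted p = 0.0813 and 0.220). For the mean of both times in that fit, the first passed (-0.68, adjusted p = 0.0284) and the other did not (-0.23). Of the genes named in these lists, INSIG2, CREBRF, SLC27A3, LPIN1 and LPCAT1 kept their 24 h calls, and LPCAT1 and LSS their 48 h calls, without any 1 array. The other calls at a single time were lost without at least 1 Nnm or control array, most often replicate 1 or 3 of that time, with adjusted p of up to 0.155 at 24 h (SLC27A2) and 0.158 at 48 h (ACAT2). For the mean of both times all named calls but those of INSIG1, NR1H3 and FITM2 were kept (these 3 reached adjusted p of 0.0578, 0.0640 and 0.0825). Without both Nnm replicate 2 arrays SLC27A2 lost its 24 h call (adjusted p = 0.0966) and SCD5 its 48 h call (adjusted p = 0.0516). In the same fit NR1H3, ACSL1 and PNPLA8 passed at both times, STARD4 at 24 h and CREBRF, SLC27A5, HILPDA and FITM2 at 48 h, at adjusted p of 0.0023 to 0.0414.

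**Figure D5:**
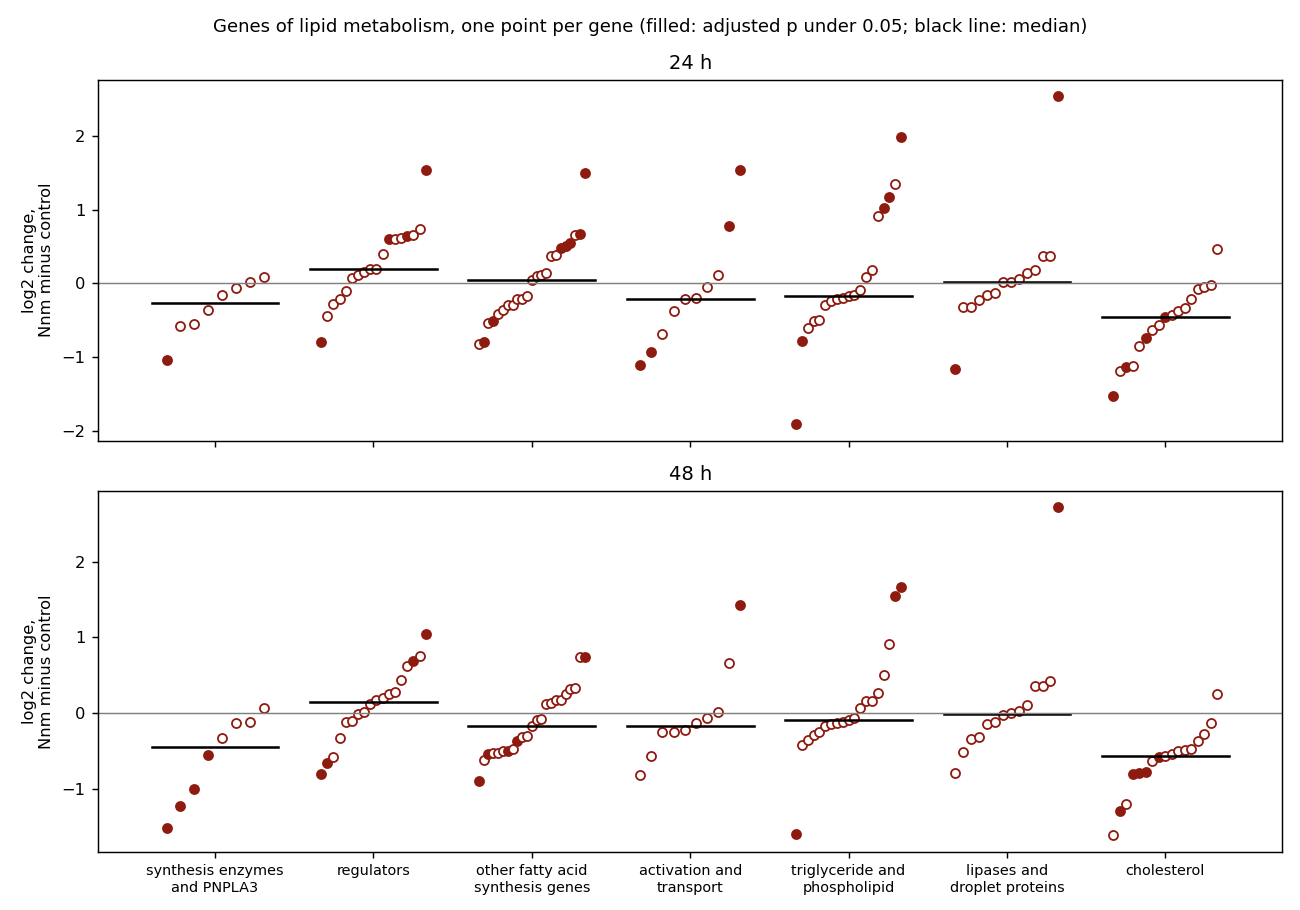
Log2 change, Nnm minus control (vertical axis), at 24 h (top) and 48 h (bottom) for the 8 tested members and the tested genes of 6 further lists. Each point is a gene, filled where its adjusted p was under 0.05, and black lines are list medians. The medians of the synthesis enzymes with PNPLA3 and of the cholesterol, activation and triglyceride lists lie below 0 at both times.

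For each of the 5 members that fell for the mean of both times, the genes with the most similar course were found. Likeness was the root mean square difference over the 12 arrays, after each gene was centred on its own mean. FASN was nearest to LMNA (0.150), PUSL1 (0.178) and TIMM50 (0.192), beside its own SD over the arrays of 0.667. PNPLA3 was nearest to TIPARP (0.163), PDK1 (0.170) and PCCB (0.199), beside an SD of 0.660. ACSS2 was nearest to GCAT (0.156), GPR143 (0.191) and REEP6 (0.201), beside an SD of 0.522. ACLY was nearest to NDUFA8, POLR2G and ECHS1 (0.0999 to 0.106, SD 0.268), and ACACA to MRPS15, CYFIP1 and ATP5PO (0.0635 to 0.0696, SD 0.157). Among these 5 members the distances ran between 0.191 (ACACA and ACLY) and 0.542 (FASN and ACACA), with 0.365 between ACSS2 and PNPLA3. These distances rest on 12 arrays that share the Nnm effect and the replicate numbers, so they describe a shared course and nothing further.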

How the data were processed

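Total RNA of 12 HK-2 cultures was hybridised to Affymetrix arrays. The authors deposited log2 expression values for which the submitters' processing notes name GCRMA (version and settings not given in the sources used here). GCRMA as a method adjusts background by probe sequence and summarises each probe set. That they are in base 2 follows from their range, and background subtraction affects the size of changes near a log2 value of 4.

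Probe sets were named from the platform annotation: 41091 have 1 symbol, 1801 several, 11721 none listed and 62 are controls. RefSeq's GRCh38.p14 table served for names and promoters. Probe sets above 4 on at least 3 arrays were kept, and the probe set with the highest mean stood for its gene. All 12 arrays in 4 groups entered a fit by lmFit and eBayes (limma 3.58.1, R 4.3.3), with Benjamini-Hochberg adjustment. SEs are limma's, and p-values rest on the spread of the arrays within their groups.

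Deviations from the group means showed that replicate numbers pair the arrays: r was 0.340 to 0.512 for a shared number within a time, 0.318 to 0.696 for a shared number in general, and -0.587 to 0.119 without one. The planned test has no block.

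The members and lists were chosen with earlier results of these data known. Named were all members and up to 4 called genes of each list, ordered by their p over both times. SREBF1, SREBF2, INSIG1, NR1H3 and, where tested, MLXIPL were added. Also named were the 3 nearest genes of each member that fell for the mean of both times. Alternatives tried were the filter, a gene's averaged probe sets, further quantile normalisation or median centring, a trend and a robust fit, weights for arrays, the replicate block (over all arrays, or by time), fits of the compared groups only, and fits lacking 1 array or the Nnm replicate 2 arrays. Leaving out all 4 replicate 2 arrays, and the fit over all kept probe sets used for FADS1 and MIR1908, were chosen after the data were seen. The tests were checked on simulated data with independent noise on each array, which does not check them for arrays paired by replicate number. Figures come from matplotlib 3.10.9 under Python 3.11.15.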

Additional observations from a re-analysis of the deposited data

How the results depend on the processing

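Over the members' changes, 547 of 592 alternatives kept the direction and the side of the threshold, 13 lost a call, 26 gained one and 6 turned the sign, all 6 for SCD at 24 h (0.02): -0.0391 when its probe sets were averaged, -0.041 with array weights, -0.0253 without the Nnm replicate 2 arrays, -0.0269 without all 4 replicate 2 arrays, and -0.0253 to 0.0517 without 1 array. At 24 h 1 member was called; 5 were with array weights, 4 without the Nnm replicate 2 arrays and without all 4 replicate 2 arrays, and 0 to 4 without 1 array. At 48 h 4 were called and 2 to 5 without 1 array. For 48 h against 24 h in Nnm cells, where 0 were called, 2 were with array weights, 1 with the replicate block, 1 without the Nnm replicate 2 arrays and 0 to 1 without 1 array. The counts over all genes, 2116 at 24 h and 1504 at 48 h, were 1272 and 879 with no filter, 4864 and 3468 with array weights, 4237 and 3515 with the replicate block, 3328 and 2513 with the replicate block within each time, and 837 and 514 with the compared groups alone. They were 3703 and 3156 without the Nnm replicate 2 arrays, 3245 and 2459 without all replicate 2 arrays, and 404 to 3248 and 267 to 2403 without 1 array. The replicate block, which pairs the arrays, gave 1 member at 24 h and 5 at 48 h, with ACACA added, and changed no other member's call against control. Without both Nnm replicate 2 arrays each Nnm group holds 2 arrays. The cause of these shifts was not tested. With 3 arrays a group, changes of 0.2 or less, such as those of SCD and ELOVL5, could not be told from none.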

Other observations

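FASN was lower on the control arrays of replicate 2 than on the other control arrays at both times, at log2 values of 9.67 against 10.32 and 10.31 at 24 h and of 9.42 against 10.13 and 10.03 at 48 h. The 3 genes nearest to FASN over the arrays were likewise lowest on the control arrays of replicate 2, which follows from their choice as the genes nearest to FASN on these arrays and is no separate support. LMNA, the gene of the nuclear lamins A and C, was at 10.77 and 10.51 on the control arrays of replicate 2 and at 11.16 to 11.48 on the other control arrays. PUSL1 was at 7.68 and 7.40 there and at 8.11 to 8.33 on the others, and TIMM50, a subunit of the mitochondrial import channel, at 10.87 and 10.53 and at 11.05 to 11.45. On the Nnm arrays of replicate 2 FASN was within the range of the other Nnm arrays at 24 h (9.05, against 9.23 and 8.89) and the lowest at 48 h (8.47, against 8.60 and 8.87). PNPLA3 differed from this on the Nnm arrays, where replicate 2 was the highest, at 7.38 against 6.71 and 6.98 at 24 h and at 7.12 against 6.14 and 6.29 at 48 h. LMNA, PUSL1 and TIMM50 were named by the rule of likeness, and this look at replicate 2 was chosen after the values were seen.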
